A study of Mus musculus with 24 samples.

Results

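The nuclear-encoded oxidative phosphorylation genes are the genes of the chromosomes that encode the proteins of the mitochondrial respiratory chain and of the ATP synthase. They were taken from the expression table by symbol: all symbols starting Nduf followed by a, b, c, s or v, all starting Uqcr, all starting Cox and a digit from 4 to 8, all starting Atp5, and Sdha, Sdhb, Sdhc, Sdhd and Cyc1. Of 18892 genes 99 matched, and 96 of them reached 1 FPKM (read fragments divided by gene length and by library depth) in at least 4 of 24 libraries. The 96 are 85 subunits (37 of complex I, 4 of complex II, 9 of complex III, 18 of complex IV and 17 of complex V), 8 assembly factors of complex I (Ndufaf1 to Ndufaf8) and 3 near copies of subunit genes (Ndufab1-ps, Ndufb4b and Ndufs6b). Ndufa4 and Ndufa4l2 were placed in complex IV, where the Ndufa4 protein is now counted. The members that missed the filter were Cox7b2, listed at 0 in all libraries, Cox8c, with at most 0.104 FPKM, and Ndufb4c, with at most 1.04 FPKM. Nearest to the filter on its inner side were Ndufaf6 and Ndufb4b, each at or above 1 FPKM in 23 libraries.

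Poly(A) RNA was sequenced from the skin of 24 mice, 8 per treatment, with 4 killed at day 10 and 4 at day 15. Control mice were given saline by daily injection and bare solvent on the skin. Model mice were given dihydrotestosterone (DHT, the potent androgen made from testosterone) by daily injection and the same solvent on the skin, and treatment mice were given DHT and, in place of bare solvent, a topical extract of Hanlianxiang (HLX), a formula of traditional Chinese medicine. Every mouse was thus injected and had solvent or extract applied, and the labels give neither strain, sex, age nor dose. Each library is 1 mouse. All 11 genes of a list of basal and suprabasal epidermis (Krt5, Krt14, Krt10 and others) passed the filter, with summed levels of 964 to 3006 FPKM. In RNA of a whole tissue, fewer cells of a type and less RNA per cell cannot be told apart.

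Oxidative phosphorylation passes electrons from NADH through complex I, or from succinate through complex II, to coenzyme Q, then through complex III and cytochrome c to complex IV, which reduces oxygen. Complexes I, III and IV pump protons across the inner mitochondrial membrane, and complex V, the ATP synthase, uses their return to make ATP. Each complex other than complex II joins subunits encoded in mitochondrial DNA to a larger number encoded in the nucleus. The 13 mitochondrial symbols looked for were not in the expression table, so those subunits could not be analysed here. In skin, the respiratory chain of keratinocytes is known to be required for follicles to grow hair. Several subunits of complex IV have a second copy made in muscle, lung, testis or hypoxic cells.

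Many of these genes are known to share promoter elements for nuclear respiratory factor 1 (NRF1), GABP (also called NRF2), YY1 and the estrogen-related receptors. RefSeq promoter sequences, 250 bases before to 50 after the start, were at hand for 77 of the 96 members on build GRCm38.p6. The study aligned its reads to GRCm39, so the positions printed here are not those of its build. Both strands were searched. The NRF1 letters, GCGCA, any base and GCGC in a row, occurred in 18 of 77 members (23.4%), in 4.78% of 27025 genes with such a sequence and in 9.88% of the 10418 genes among them that were tested for expression. The GABP letters CCGGAAG also occurred in 18 members (23.4%), against 9.12% of all and 17.5% of tested genes. The YY1 letters AAGATGGC occurred in 10 members (13.0%), against 2.88% and 4.45%. The estrogen-related receptor letters TCAAGGTCA occurred in 2 members (2.60%), against 0.407% and 0.230%, and the letters of MEF2, a muscle factor (CTA, any 4 bases, TAG), in 2 members (2.60%), against 3.70% and 3.00%. Overlap between motifs was allowed, and a match is no more than the presence of these letters.

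The following promoters are shown because 4 of them belong to members of complexes I to IV whose RNA was higher in treatment than in model skin of day 15, with the matched letters in capitals, and the last to a muscle copy of a complex IV subunit, in which none of the 5 motifs was found. Each is written 5′ to 3′ in the direction of its gene.
Cox6a1, chr5:115348909-115349208, minus strand: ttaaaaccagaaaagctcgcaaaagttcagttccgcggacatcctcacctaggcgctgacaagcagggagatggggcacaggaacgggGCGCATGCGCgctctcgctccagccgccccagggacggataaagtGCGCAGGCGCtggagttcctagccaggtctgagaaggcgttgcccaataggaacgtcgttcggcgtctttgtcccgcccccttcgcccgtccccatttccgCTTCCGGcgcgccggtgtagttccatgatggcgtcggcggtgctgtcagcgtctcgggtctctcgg
Uqcrc1, chr9:108936398-108936697, plus strand: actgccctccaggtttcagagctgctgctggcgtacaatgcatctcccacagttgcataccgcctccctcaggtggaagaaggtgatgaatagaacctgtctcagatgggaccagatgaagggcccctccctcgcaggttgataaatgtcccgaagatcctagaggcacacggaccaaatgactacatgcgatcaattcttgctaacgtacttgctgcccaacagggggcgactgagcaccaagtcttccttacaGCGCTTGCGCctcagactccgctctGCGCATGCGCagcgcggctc
Ndufa9, chr6:126849095-126849394, minus strand: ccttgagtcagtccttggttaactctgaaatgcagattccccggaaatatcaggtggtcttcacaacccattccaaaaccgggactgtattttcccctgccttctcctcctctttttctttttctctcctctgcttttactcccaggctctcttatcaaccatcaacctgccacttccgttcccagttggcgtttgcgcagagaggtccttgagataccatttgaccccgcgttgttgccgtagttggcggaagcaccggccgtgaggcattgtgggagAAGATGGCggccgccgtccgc
Sdhb, chr4:140961021-140961320, plus strand: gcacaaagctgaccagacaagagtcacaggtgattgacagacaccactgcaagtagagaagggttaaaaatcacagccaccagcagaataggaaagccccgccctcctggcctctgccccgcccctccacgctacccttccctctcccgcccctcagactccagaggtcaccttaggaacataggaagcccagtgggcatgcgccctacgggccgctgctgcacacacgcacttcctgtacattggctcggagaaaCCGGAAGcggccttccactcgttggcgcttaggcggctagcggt
Cox8b, chr7:140900397-140900696, minus strand: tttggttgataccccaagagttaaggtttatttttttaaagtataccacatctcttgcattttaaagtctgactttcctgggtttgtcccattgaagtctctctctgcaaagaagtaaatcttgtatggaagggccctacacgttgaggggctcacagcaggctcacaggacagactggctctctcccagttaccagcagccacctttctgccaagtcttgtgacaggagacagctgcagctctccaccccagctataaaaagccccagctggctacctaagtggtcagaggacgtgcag

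Of the 15 members with a promoter sequence that were called higher in treatment than in model skin of day 15, 5 held the NRF1 letters, 3 the GABP letters, 2 the YY1 letters, 1 the MEF2 letters and none the estrogen-related receptor letters. Cox6a1 held both NRF1 and GABP letters, Uqcrc1 NRF1, Ndufa9 YY1 and Sdhb GABP letters.

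Reads assigned to genes were inferred from the steps of the FPKM values for 97.3% of the genes above 0. They summed to 37048881 to 41117239 per library, and the libraries had 16457 to 16943 genes above 0. Correlations between libraries of 1 group over all genes were at least 0.979 in all groups of day 10 and in control skin of day 15, and as low as 0.943 in model and 0.928 in treatment skin of day 15. In those groups 3 libraries stood apart. Model day 15 replicate 3 had a summed level of 7 neutrophil genes of 3100 FPKM, against at most 480 FPKM in other libraries. Model day 15 replicate 2 had the highest sums of skeletal muscle and white fat genes, and treatment day 15 replicate 3 the lowest dermal fibroblast sum. Kap, a gene of kidney tubules, was at 13.98 to 23.85 FPKM in all libraries of control and model skin of day 10 and listed at 0 in the other 16. Treatment skin against model or control skin of day 10 crosses this division. So do the days compared in control and in model skin, and the change of the extract's effect between days. The labels do not say what divides the libraries, and in these comparisons it cannot be told apart from treatment or day. Summed Y-linked transcripts (4 genes) were at 22.3 to 33.4 FPKM in 4 treatment libraries (day 10 replicate 3 and day 15 replicates 1, 2 and 4) and at 39.2 to 50.6 FPKM in the other 20.

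The 85 subunits together made up 2.25% of all FPKM in the median library (range 1.98% to 2.48%). Their summed level ran from 8495 to 11024 FPKM per library. The group means were 9637 ± 669 FPKM (SD, n = 4) in control, 9779 ± 325 in model and 9392 ± 623 in treatment skin of day 10, and 9532 ± 480, 9285 ± 802 and 10019 ± 696 in the same order at day 15. All 6 groups overlapped in this sum. The share of each complex was close to constant between mice: complex V held 33.5% to 35.4% of the subunit sum, complex IV 24.7% to 26.9%, complex I 24.4% to 25.5%, complex III 11.3% to 12.2% and complex II 2.83% to 3.18%.

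**Figure D1:**
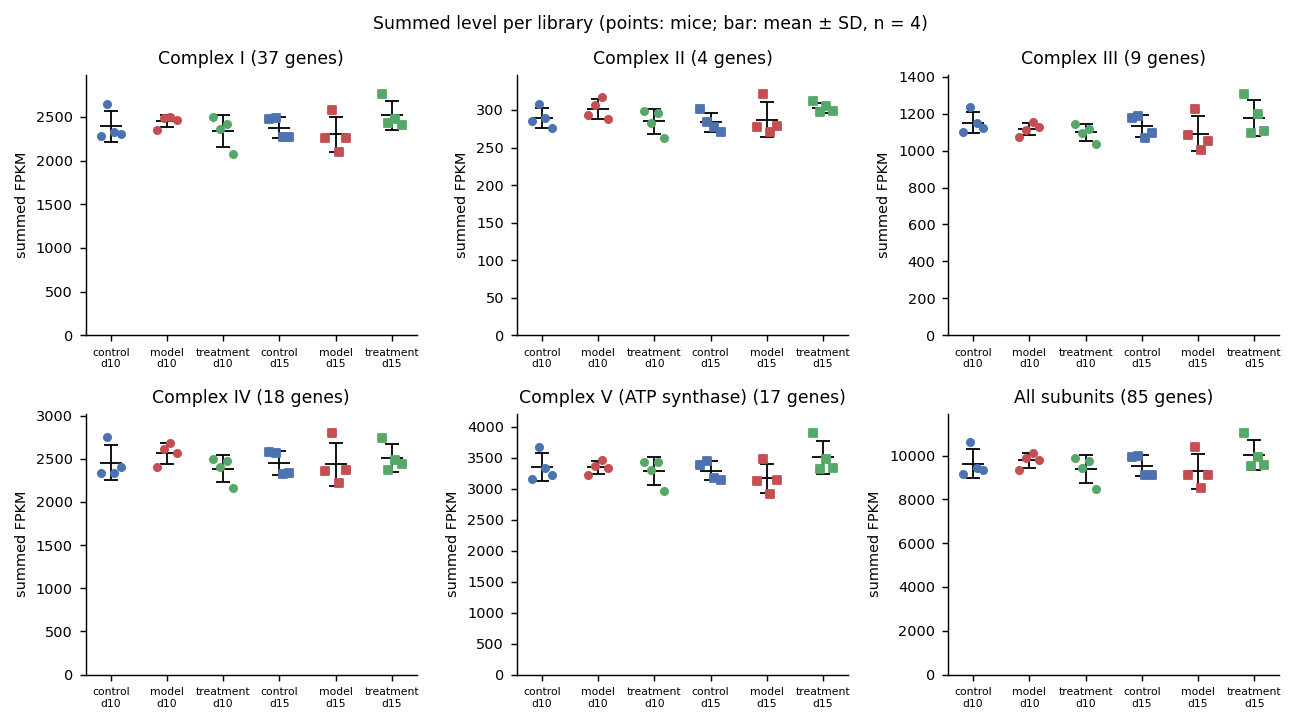
Summed FPKM of the subunits of each complex and of all 85 subunits (y axis, linear from 0) in 6 groups of 4 mice (x axis; d10 and d15 are days). Points are mice and bars the mean ± SD; the groups overlap in every panel, with model day 15 at 9285 ± 802 and treatment day 15 at 10019 ± 696 FPKM for all subunits.

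Within complexes the levels, which FPKM gives per length of gene, spanned more than between groups. In complex V the highest was Atp5b, the catalytic beta subunit, with 556 ± 32.9 FPKM (SD, n = 4) in control skin of day 10, and Atp5a1, the alpha subunit it alternates with in the same head, had 313 ± 13.9. The lowest of complex V was Atp5g1, with 42.2 ± 2.82 FPKM. Atp5g1 is 1 of 3 genes for the same membrane ring protein, subunit c; it gave 10.0% to 12.4% of their summed FPKM, Atp5g2 32.3% to 37.7% and Atp5g3 51.2% to 55.7%. These shares kept their order in all 24 libraries.

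In complex IV, Cox4i1, the general copy of a regulatory subunit next to the catalytic core, was the highest with 370 ± 57.5 FPKM in control skin of day 10, and Cox6b2, the testis copy of the subunit that bridges the dimer, the lowest with 3.56 ± 0.737. Complex III ran from Uqcrq (50.1 ± 3.24 FPKM), a small subunit, to Uqcrh, the hinge protein that docks cytochrome c (344 ± 41.4). Complex II, which has no mitochondrially encoded subunit, ran from Sdhd, a membrane anchor (46.8 ± 5.51), to Sdhb, the iron-sulfur subunit (96.1 ± 8.05). Among the 7 core subunits of complex I, which carry its cofactors, Ndufs7 was lowest (22.5 ± 1.39). The 30 accessory subunits ran from Ndufa11 (11.9 ± 1.05) to Ndufb9 (162 ± 16.7). The assembly factors lay lower, from Ndufaf6 (1.47 ± 0.191) to Ndufaf1 (12.4 ± 1.41), as did the near copies, from Ndufb4b (1.49 ± 0.279) to Ndufab1-ps (7.11 ± 0.533). How reads shared by a gene and its near copy were counted is not given in the sources used here, so the levels of Ndufab1, Ndufb4, Ndufs6 and their copies are uncertain to that extent.

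Between mice of 1 group most members varied little. The median within-group coefficient of variation (CV, SD over mean) was 8.17% over the 96 members, against 10.6% over all 13039 genes tested and 8.35% over the 6028 genes with a mean of at least 10 FPKM. By class the median CV was 5.27% in the complex I core, 6.09% in complex II, 6.83% in complex V, 6.94% in complex III, 8.72% in complex IV, 8.78% in the accessory subunits and 10.4% in the assembly factors. Atp5pb, the peripheral stalk subunit b, was steadiest at 3.23%. The muscle copies of complex IV varied most: Cox6a2 at 32.7%, Cox8b at 29.1% and Cox7a1 at 27.2%.

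**Figure D2:**
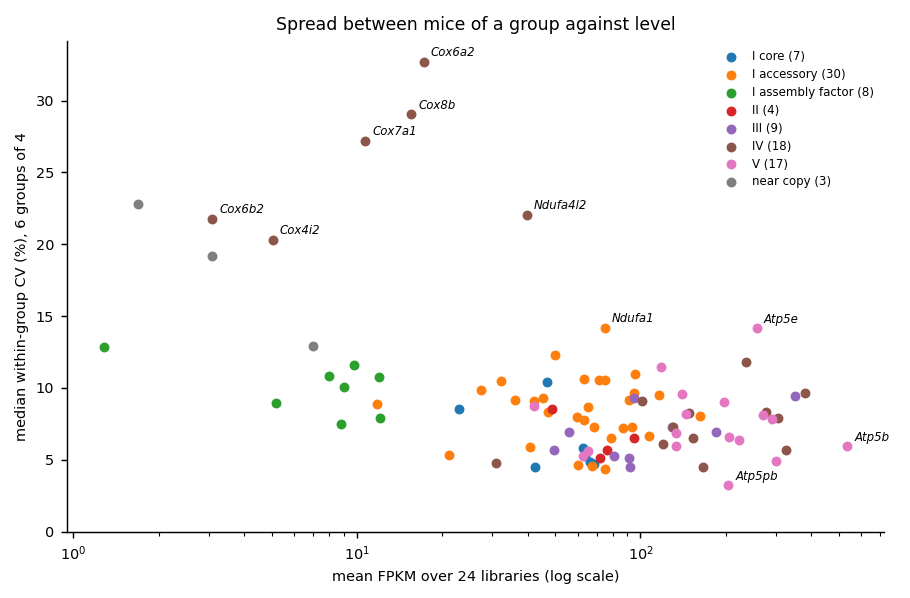
Median within-group CV over 6 groups of 4 mice (y axis, percent) against mean FPKM over 24 libraries (x axis, log scale) for the 96 members, coloured by complex or class with the number of members in brackets. Cox6a2, Cox8b and Cox7a1, at 27.2% to 32.7%, lie above all other members.

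Second copies of complex IV subunits were minor in every library. Cox6a2, the heart and skeletal muscle copy of subunit 6a, gave 3.81% to 17.5% of the summed FPKM of both copies (median 9.19%). Cox8b, the muscle copy of subunit 8, gave 6.26% to 17.2% (median 8.55%), and Cox7a1, the muscle copy of subunit 7a, 4.99% to 15.6% (median 7.45%). Ndufa4l2, a hypoxia-induced relative of Ndufa4, gave 8.15% to 19.1% (median 14.3%). Cox4i2, the copy known from lung and from low oxygen, gave 0.732% to 2.20%, and Cox6b2 0.415% to 1.47%.

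The 3 muscle copies correlated with the summed level of skeletal muscle genes in the library. Cox6a2 was at 16.4, 7.01, 9.22 and 12.6 FPKM in control and 22.6, 18.8, 27.3 and 14.7 in model skin of day 10, and its highest value, 30.2 FPKM, was in model day 15 replicate 2. The sum of 24 skeletal muscle genes (Acta1, Ckm and others, none of them a member) ran from 1619 FPKM in a control library of day 10 to 6804 in that same model library. Cox8b (33.2 FPKM) and Cox7a1 (22.2) were also highest there, as was the white fat sum. Ucp1, from a list of 8 brown or beige adipocyte genes, was at 3.13 FPKM there and at most 0.164 elsewhere. The sum of that list was at most 88.3 FPKM in model skin of day 15 and up to 165 in model skin of day 10. The part of fat in these copies was not tested. Over the 24 libraries the correlation of log2 Cox6a2 with the log2 muscle sum was r = 0.905 (Spearman's rho = 0.928; permutation p = 1e-05 for both, the smallest that 100000 permutations give; adjusted over 6 relations, p = 2e-05 and 3e-05). It was r = 0.901 without the 2 libraries farthest from the median muscle sum (model day 15 replicate 2 and treatment day 15 replicate 1), and r = 0.904 on deviations from the group means. For Cox8b these were r = 0.836 (rho = 0.842; permutation p = 1e-05 for both, adjusted 2e-05 and 3e-05), 0.804 and 0.832. For Cox7a1 they were r = 0.798 (permutation p = 1e-05, adjusted 2e-05; rho = 0.768, permutation p = 8e-05, adjusted 0.00016), 0.669 and 0.832. On deviations from the group means the permutation p was 1e-05 for Cox6a2, 0.00051 for Cox8b and 0.00015 for Cox7a1 (adjusted 6e-05, 0.00102 and 0.00045).

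For the general copies of the same subunits no such relation passed the test. Cox6a1 had r = -0.07 (rho = -0.15; permutation p = 0.728 and 0.468), Cox7a2 r = 0.21 (rho = -0.01; permutation p = 0.328 and 0.946) and Cox8a r = 0.24 (rho = 0.23; permutation p = 0.252 and 0.28). The adjusted p of r were 0.728, 0.393 and 0.379, and those of rho 0.562, 0.946 and 0.421. Without the same 2 libraries r was -0.21, 0.02 and -0.07, and on deviations from the group means 0.02, 0.40 and 0.30 (permutation p = 0.932, 0.111 and 0.181; adjusted 0.932, 0.167 and 0.217). The summed level of the muscle list ranged from 1619 to 2843 FPKM in control and from 1878 to 5859 in model skin of day 10. Of the 22 muscle genes that passed the filter limma called none between these groups (6 at an unadjusted p under 0.05), with a median log2 difference of 0.56.

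**Figure D3:**
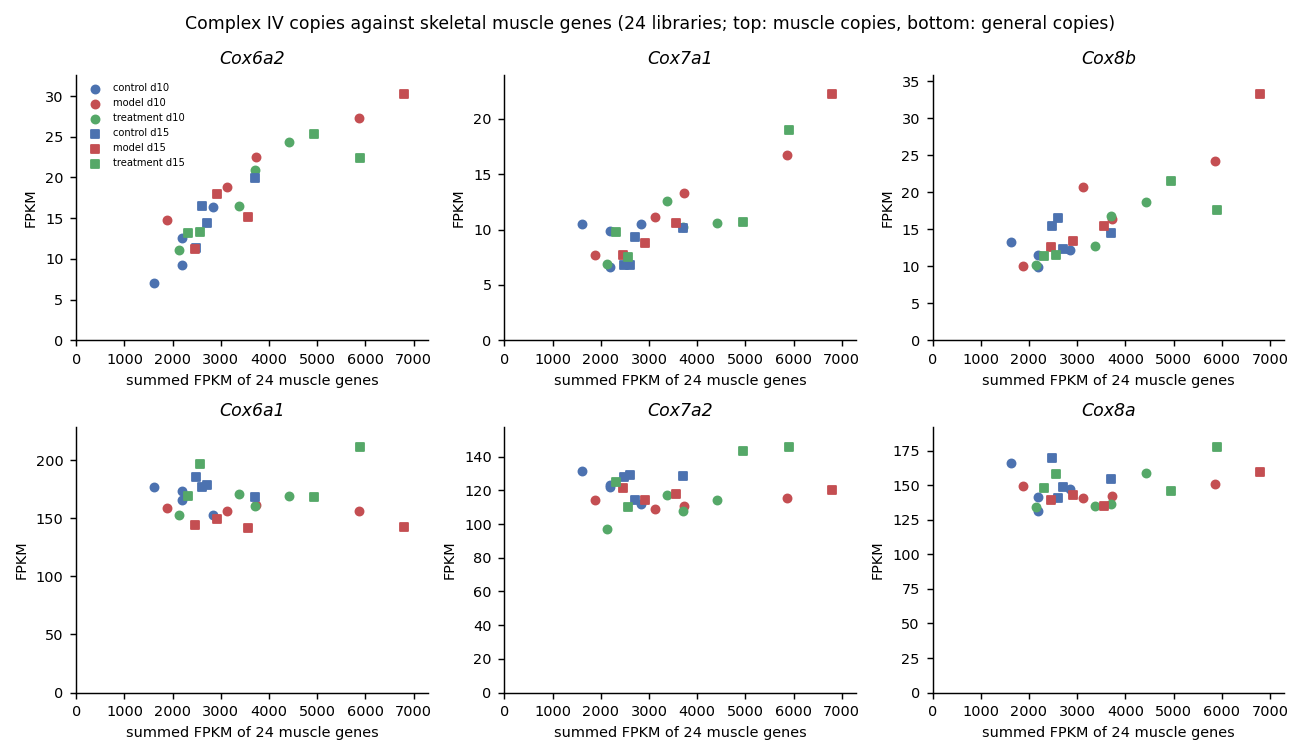
FPKM of complex IV subunit copies (y axis, linear from 0) against the summed FPKM of 24 skeletal muscle genes (x axis) in 24 libraries, coloured by treatment (circles day 10, squares day 15). The muscle copies Cox6a2, Cox7a1 and Cox8b (top) rise with the muscle sum (r on log2 values of 0.905, 0.798 and 0.836), and r is -0.07, 0.21 and 0.24 for the general copies Cox6a1, Cox7a2 and Cox8a (bottom).

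DHT against control at day 10 asks what the androgen changed. A member is called in what follows when its two-sided adjusted p in limma, over all 13039 genes, is under 0.05, and differences are on the log2(FPKM + 1) scale. None of the 96 members was called (5 at an unadjusted p under 0.05; none with voom on recovered reads), while 13.8% of all genes tested were. The median difference of the members was 0.02, against -0.02 over all genes, with 52 of 96 above 0. For 90 of 96 members the 95% interval of the difference lay within 0.5 of 0 on the log2 scale. The smallest p values belonged to Cox6a2 (0.86, SE 0.30, adjusted p = 0.062) and to Ndufa1, a small accessory subunit of complex I needed for its assembly (0.39, SE 0.14, adjusted p = 0.0655). Ndufa1 was at 60.8, 85.5, 60.8 and 58.4 FPKM in control and 74.3, 91.2, 87.0 and 93.2 in model skin; control replicate 2 lay inside the model range. The third was Ndufa9, an accessory subunit with a nucleotide-binding fold, at 67.2, 72.5, 72.5 and 64.1 against 63.1, 61.8, 63.2 and 62.1 FPKM, without overlap (-0.14, SE 0.06, adjusted p = 0.142). Beside these, the median difference of the skeletal muscle list was 0.56, 11 of 16 hair matrix and shaft genes fell and 9 of 10 macrophage genes rose, and their part in the members' values was not tested.

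At day 15, DHT against control, 1 of 96 members was called, against 10.8% of all genes in either direction and 6.56% called lower. Cox6a1, the general copy of subunit 6a, was at 185, 168, 179 and 177 FPKM in control and at 144, 142, 142 and 149 in model skin. All 4 model libraries lay below all control libraries, and Cox6a1 fell by 0.29 on the log2 scale (SE 0.07, adjusted p = 0.0142). Without the 3 libraries that stand apart the difference was -0.27 and was not called (adjusted p = 0.1, the highest of 18 alternatives, whose lowest was 0.000683; it was called in the other 17), and without model day 15 replicate 2 alone Ndufs6 was called as well, a count of 2. The next were Ndufa9 (-0.19, SE 0.06, adjusted p = 0.0545) and Atp5b (-0.18, SE 0.07, adjusted p = 0.0908), both without overlap between the groups. In total 10 members had an unadjusted p under 0.05. The median difference was -0.05 (-0.03 over all genes) and 31 of 96 members were above 0 (43 after median-of-ratios scaling). By class the median was -0.05 in complex I, 0.03 in complex II, -0.09 in complex III, 0.00 in complex IV and -0.06 in complex V. Complex IV had the widest range, from -0.39 for Cox4i2 to 0.43 for Cox7a1, neither of which was called. Beside these, the summed level of the hair matrix and shaft genes was 5545 to 6689 FPKM in control and 2966 to 4923 in model skin (4 of 16 fell), and that of the epidermal genes 1897 to 2096 against 964 to 1748 (3 of 11 fell). The dermal fibroblast sum was 5144 to 6161 against 7763 to 14612 FPKM (3 of 9 rose). These 3 sums did not overlap between the groups, and their part in the members' values was not tested.

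The extract against DHT alone at day 10 asks what the topical formula changed. None of 96 members was called (4 at an unadjusted p under 0.05; none with voom), and 0.192% of all genes were. The median difference was -0.07 (-0.03 over all genes) and 19 of 96 members were above 0. After median-of-ratios scaling these were -0.02 (0.01 over all genes) and 36 of 96, and with a common total -0.08 (-0.05) and 16 of 96. Ndufa5, an accessory subunit of the matrix arm, was at 47.7, 49.0, 49.0 and 50.05 FPKM in model and at 44.2, 40.4, 38.8 and 35.7 in treatment skin. The groups did not overlap, and the difference was -0.30 (SE 0.10, adjusted p = 0.265). Ndufb1 (-0.30, adjusted p = 0.359), also without overlap, and Ndufa6 (-0.26, adjusted p = 0.404), both accessory subunits, followed.

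At day 15, 19 of 96 members rose and none fell in treatment against model skin. This is 19.8% of the members, and 19.7% of all genes were called in either direction; called higher were 10.3% of all genes. The median difference was 0.10 over the members and -0.02 over all genes, and 70 of 96 members were above 0. With each library scaled to a common total the medians were 0.03 and -0.07, and 56 of 96 members were above 0. The subunits made up 2.20% ± 0.206% (SD, n = 4) of all FPKM in model and 2.26% ± 0.127% in treatment skin of day 15. The called members came from all 5 complexes: 7 of 37 in complex I, 1 of 4 in complex II, 4 of 9 in complex III, 3 of 18 in complex IV and 4 of 17 in complex V. None of the 8 assembly factors (1 at an unadjusted p under 0.05, median -0.03) and none of the 3 near copies (0 at an unadjusted p under 0.05) was called. In 15 members (15.6%) every treatment library lay above every model library, against 7.98% of all genes, and 10 of the 15 were among the called.

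**Figure D4:**
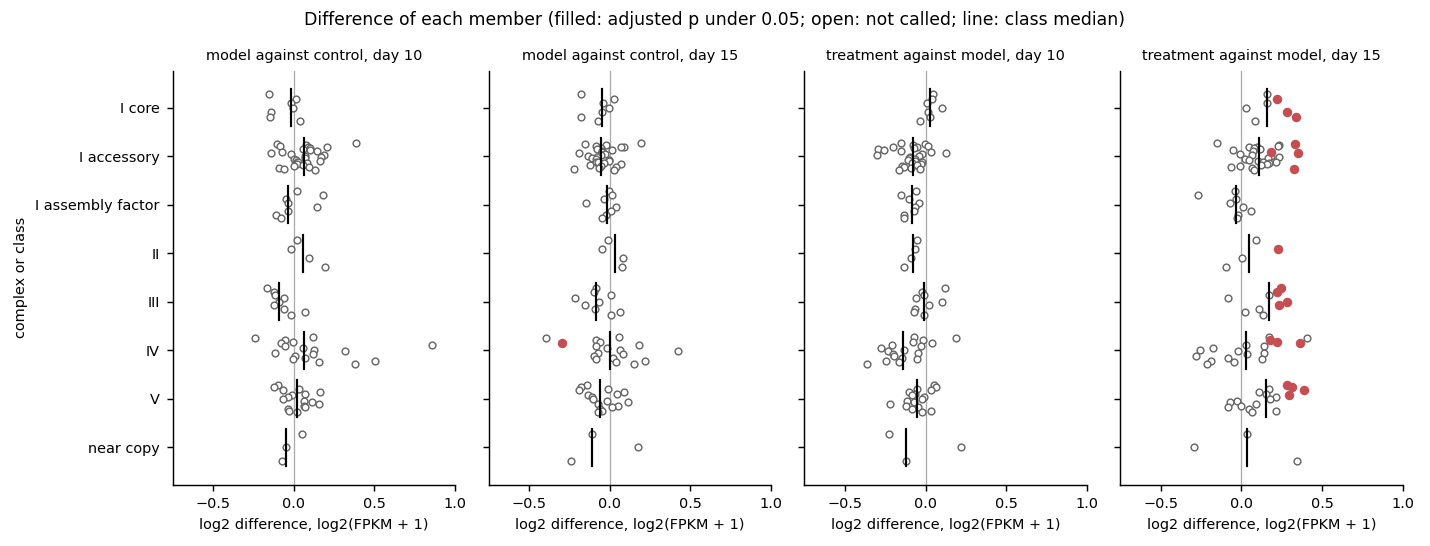
Difference of each of the 96 members on the log2(FPKM + 1) scale (x axis) by complex or class (y axis) in 4 comparisons of 4 mice against 4. Filled red points are members with an adjusted p under 0.05 (limma), open points members not called and black lines class medians; 1 red point lies left of 0 in model against control of day 15 and 19 lie right of 0 in treatment against model of day 15.

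In complex I, Ndufa9 was at 60.7, 58.8, 57.7 and 60.7 FPKM in model and 81.4, 78.5, 75.9 and 68.8 in treatment skin of day 15. The 4 treatment libraries lay above the model libraries; 3 of them lay above all control libraries of that day (66.2, 70.9, 68.4 and 66.8 FPKM), and the lowest fell inside the control range. The difference from model skin was 0.35 (SE 0.06, adjusted p = 0.00158), 1.27-fold on the FPKM + 1 scale. Ndufv1, the flavin subunit that takes electrons from NADH, went from 57.9, 59.3, 46.5 and 54.9 FPKM to 72.9, 70.2, 68.1 and 65.0, again without overlap (0.34, SE 0.07, adjusted p = 0.00433). Ndufa10, an accessory subunit, rose by 0.33, Ndufs6 by 0.32, Ndufs8, an iron-sulfur subunit, by 0.28 and Ndufa8 by 0.18. Ndufs8 was closest to the threshold (adjusted p = 0.0496).

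In complex II, Sdhb was at 85.9, 98.3, 85.7 and 88.3 FPKM in model and 112, 97.7, 105 and 105 in treatment skin, where model replicate 2 reached into the treatment range (0.23, SE 0.07, adjusted p = 0.0299). Sdha, the flavin subunit, and the anchors Sdhc and Sdhd were not called. In complex III, Uqcrc1, a core protein on the matrix side, was at 81.3, 85.9, 83.2 and 81.0 FPKM in model and at 108, 102, 102 and 92.8 in treatment skin without overlap (0.28, SE 0.06, adjusted p = 0.00262). Its partner core protein Uqcrc2 rose by 0.23, cytochrome c1 (Cyc1) by 0.24 and the small subunit Uqcr10 by 0.22, each with overlapping groups. Uqcrb, which binds near the quinone site, was lower on average in treatment skin (172 ± 33.8 FPKM, against 180 ± 14.9 in model skin) and not called.

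In complex IV, Cox6a1 rose from 144, 142, 142 and 149 FPKM in model to 212, 197, 168 and 170 in treatment skin (0.36, SE 0.07, adjusted p = 0.00205). It had fallen in model against control skin of the same day, and the treatment libraries at 212 and 197 FPKM lay above all control libraries, those at 168 and 170 at the lower end of the control values (168 to 185). Both comparisons share the model libraries. Cox5a and Cox5b, nuclear subunits around the catalytic core, rose by 0.18 and 0.22. Cox6c (269 ± 21.6 FPKM, against 324 ± 52.9 in model skin) and Cox7b (87.1 ± 24.7, against 103 ± 9.14) were lower on average in treatment skin and not called (adjusted p = 0.0683 and 0.142). Cox6c was called lower with voom, with a common total and without model day 15 replicate 3, and Cox7b with array weights, without treatment day 15 replicate 3 and without the 3 libraries that stand apart. Cox7b spanned 59.4 to 119 FPKM among the 4 treatment mice.

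In complex V the called members were Atp5a1, Atp5b, Atp5d and Atp5g2, which include both large subunits of the catalytic head and the delta subunit of its stalk. Atp5b was at 498, 504, 443 and 467 FPKM in model and 643, 552, 635 and 553 in treatment skin (0.32, SE 0.07, adjusted p = 0.0052). Atp5a1 was at 275, 276, 246 and 273 against 348, 314, 337 and 305 FPKM (0.28, SE 0.06, adjusted p = 0.00381), and Atp5d at 59.6, 59.4, 52.5 and 56.9 against 86.7, 77.9, 72.4 and 64.8 (0.39, SE 0.08, adjusted p = 0.00243), the largest difference of the 19. All 3, and Atp5g2 (0.30, adjusted p = 0.0117), were without overlap. Of the other copies of subunit c, Atp5g1 and Atp5g3 were not called.

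**Figure D5:**
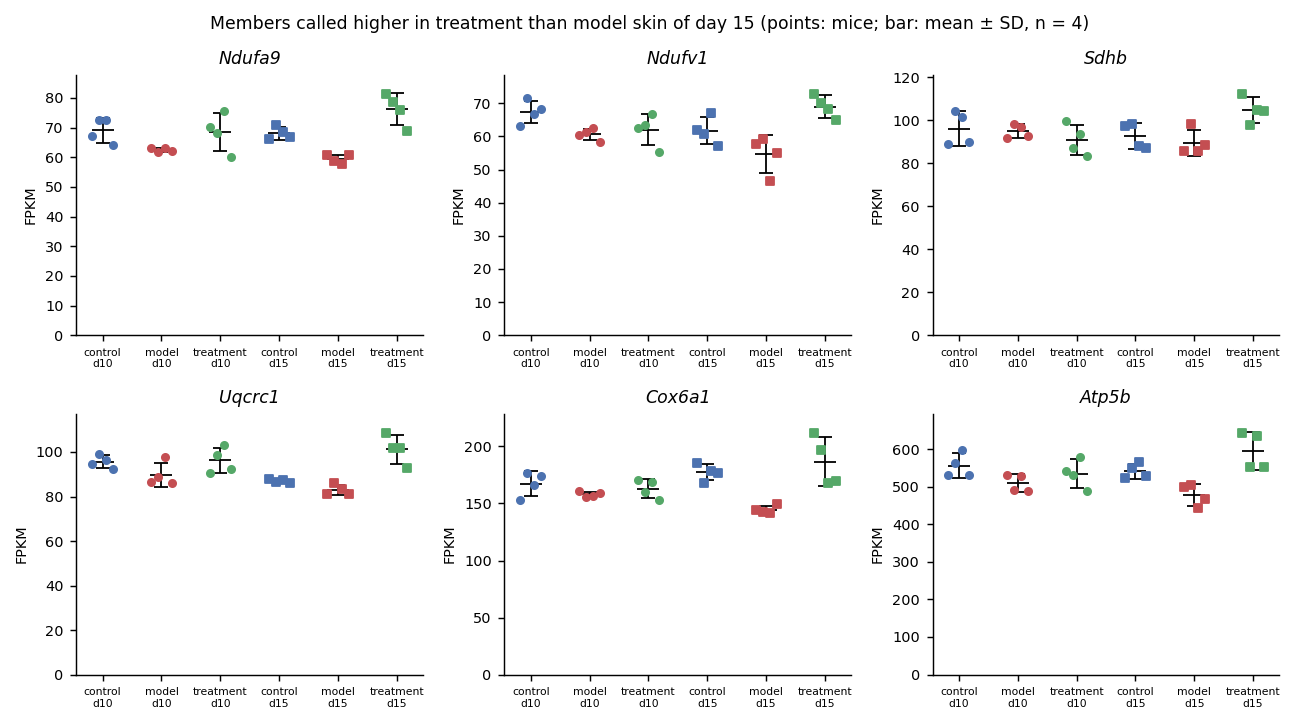
FPKM (y axis, linear from 0) of 6 called members, at least 1 from each complex, in 6 groups of 4 mice (x axis). Points are mice and bars the mean ± SD; for Ndufa9, Ndufv1, Uqcrc1, Cox6a1 and Atp5b all treatment libraries of day 15 lie above all model libraries of day 15, and for Sdhb 1 model library (98.3) lies above the lowest treatment library (97.7).

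The calls rest on a spread estimated from all 24 libraries. Fitted on the 8 libraries of model and treatment skin of day 15 alone, limma called none of the 96 members (19 at an unadjusted p under 0.05) and none of all genes (2503 at an unadjusted p under 0.05). The count of members was 12 without model day 15 replicate 3 (10 higher and 2 lower) and 11 without model day 15 replicate 4. It was 10 without treatment day 15 replicate 1 and 11 with a common total per library, 10 of them higher. In the same order these fits called 1850, 2088, 1221 and 2335 of all 13039 genes. The count of members was 13 without the 3 libraries that stand apart (12 higher, 1 lower), where 1834 of all genes were called (351 higher, 1483 lower). The fit without the 4 treatment libraries low in Y-linked transcripts leaves treatment day 15 replicate 3, a library that stands apart, alone in its group. Its median difference was 0.15 over the members and 0.08 over all genes, and it is not counted in what follows. Over all genes the unscaled fit on the 24 libraries called 1348 higher and 1215 lower, and with a common total 677 and 1658. Atp5a1, Atp5b, Atp5d, Atp5g2, Cox6a1, Ndufa9, Ndufa10, Ndufv1 and Uqcrc1 were called in 17 of the 18 other alternatives, all but the fit on those 8 libraries. Ndufs6 and Uqcrc2 were called in 15, Cox5a in 13, Cyc1 and Sdhb in 11, Ndufa8 in 9, Ndufs8 in 8, Uqcr10 in 7 and Cox5b in 5 of the 18.

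Called members had longer gene models, with a median of 1554 bases (497 to 3153) against 750 bases (320 to 4309) in the other 77. Over the 96 members, which are not independent replicates, Spearman's rho of length with the difference was 0.24 in this comparison, 0.35 for the extract at day 10 and -0.28 for DHT at day 10. The part of length in the calls was not tested.

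Other gene lists moved in the same comparison. Of the cytosolic ribosomal protein genes 31 of 80 rose and none fell (median 0.22), with summed levels of 58351 to 65271 FPKM in model and 69052 to 80106 in treatment skin. Of 78 mitochondrial ribosomal protein genes 18 rose (median 0.12), of 34 genes of mitochondrial import and the inner membrane 9 rose (median 0.11), and of 18 genes of the tricarboxylic acid cycle, which feeds NADH and succinate to the chain, 3 rose. Those were Mdh2, malate dehydrogenase (0.33, SE 0.06, adjusted p = 0.00107), Cs, citrate synthase (0.36), and Suclg1, of succinyl-CoA ligase (0.28). Slc25a5, an ADP/ATP carrier of the inner membrane, rose by 0.34 (adjusted p = 0.00214). Of 18 glycolysis genes 1 rose, Aldoc (0.41). Of 44 assembly factors and carriers outside the symbol rule 2 rose and 5 fell, and of 15 regulators of mitochondrial biogenesis none rose and 2 fell. Those were Gabpa, the DNA-binding subunit of GABP (-0.33, SE 0.11, adjusted p = 0.0317), and Mterf3, a mitochondrial regulator (-0.39, SE 0.12, adjusted p = 0.0311). Gabpa was at 17.7, 16.3, 16.3 and 18.4 FPKM in model and 11.1, 10.9, 17.8 and 14.9 in treatment skin. Treatment replicate 3, at 17.8 FPKM, lay inside the model range. The treatment libraries below that range are those low in Y-linked transcripts. Of 16 hair matrix and shaft genes, all of which passed the filter, 13 rose (median 0.79; sums of 2966 to 4923 against 5860 to 8052 FPKM). Of 9 dermal fibroblast genes 3 fell (7763 to 14612 against 2998 to 9620 FPKM), of 10 macrophage genes 2 fell (2090 to 4239 against 749 to 2961) and of 7 neutrophil genes 1 fell. Their part in the members' differences was not tested.

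DHT plus extract against control gave no called member at day 10 (4 at an unadjusted p under 0.05 in limma, none called with voom; 3.24% of all genes) or at day 15 (19 at an unadjusted p under 0.05, none called with voom; 0.314% of all genes). At day 15 Uqcrc1 was at 87.8, 86.4, 87.3 and 85.9 FPKM in control skin, below all 4 treatment libraries (0.22, SE 0.06, adjusted p = 0.0843). Without treatment day 15 replicate 3, which stands apart, 5 members were called, among them Uqcrc1 higher and Cox7b, Uqcrb and Ndufaf4 lower in treatment skin. Without all 3 libraries that stand apart the count was 7 of 96, with Ndufa10 and Ndufaf2 added. That fit called 3352 of all 13039 genes, a larger share than of the members. The count over all genes without treatment day 15 replicate 3 alone is not given here. Ndufaf2, Ndufaf4 and Uqcrb are named here after their values were seen. At day 10 the smallest p belonged to Ndufaf7, an assembly factor and methyltransferase (-0.25, SE 0.07, adjusted p = 0.0639), Ndufa5 (-0.24, adjusted p = 0.144) and Cox6a2 (0.65, adjusted p = 0.179).

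Between day 10 and day 15 no member was called in control skin (5 at an unadjusted p under 0.05 in limma, none called with voom; 4.81% of all genes). In model skin 1 was called (8.47% of all genes in either direction, 6.85% lower): Atp5g2 went from 129, 152, 134 and 144 to 120, 123, 106 and 116 FPKM, without overlap, and fell by 0.26 on the log2 scale (SE 0.08, adjusted p = 0.0373). This call was lost without any 1 of model day 10 replicates 2, 3 and 4 and model day 15 replicates 3 and 4 (adjusted p up to 0.166), and 3 members were called without model day 15 replicate 2. In treatment skin 4 of 96 rose and none fell (9.64% of all genes were called in either direction and 2.11% were called higher): Cox5a (0.24, SE 0.05, adjusted p = 0.01), Uqcr10 (0.25, adjusted p = 0.0392), Cox7a2, the general copy of subunit 7a (0.26, adjusted p = 0.0418), and Ndufa10 (0.22, adjusted p = 0.0492). Cox5a was at 30.7, 30.2, 27.5 and 27.3 FPKM at day 10 and 36.5, 33.6, 34.7 and 32.3 at day 15, without overlap, and was the only one of the 4 called when any 1 of treatment day 10 replicate 2 or 4 or treatment day 15 replicate 1 was left out. The count was 2 without treatment day 15 replicate 2 and 7 without treatment day 15 replicate 4. For these fits without 1 library, in model and treatment skin, counts over all genes are not given here. The changes in count are therefore not read as particular to the members.

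Whether an effect differed between the days was tested directly. For DHT against control no member was called (1 at an unadjusted p under 0.05 in limma; none with voom), and 0% of all genes were (352 at an unadjusted p under 0.05). For the extract against DHT alone no member was called either (23 at an unadjusted p under 0.05; none with voom), against 0.0997% of all genes. The median difference between the days was 0.18 over the members and 0.02 over all genes, and 87 of 96 members were above 0. The smallest p belonged to Atp5g2 (0.38, SE 0.11, adjusted p = 0.138), Ndufa10 (0.34, SE 0.10, adjusted p = 0.139) and Atp5d (0.36, SE 0.11, adjusted p = 0.151). The rise of 19 members at day 15 and of none at day 10 is thus not shown to be a difference between the days.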

How the data were processed

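Skin poly(A) RNA of 24 mice, 1 library each, was analysed. Per the submitters' processing notes the authors used fastp, HISAT2, HTSeq and build GRCm39; versions and the annotation release are not given in the sources used here. The deposited values are FPKM for 18892 genes, used without further scaling. Groups came from sample titles. Values were transformed to log2(FPKM + 1) and genes with at least 1 FPKM in at least 4 libraries were kept (13039; 5853 removed). A model with a mean for each group was fitted over the 24 libraries in limma 3.58.1 (R 4.3.3) (lmFit, contrasts.fit, eBayes with trend and robust), with Benjamini-Hochberg adjustment over all genes in each of 11 comparisons (adjusted p under 0.05, two-sided). The fit was tested on simulated data whose changes were larger than the differences of the called members, so that test does not cover differences of their size. Whole reads were recovered from FPKM steps for 18210 of 18715 genes above 0 (97.3%), for voom only. The inferred depth of 37048881 to 41117239 reads, which leaves out the other genes, limits low genes, and reads carry no molecular identifiers.

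The members, lists, comparisons and naming rule were chosen with earlier results of these data known. Named genes are the highest and lowest member of each complex in control skin of day 10, up to 3 called members per complex and direction with the smallest p in each comparison (or the 3 smallest p where none was called), the tissue-specific copies, members at the filter, and up to 3 genes of each other list; the results of 1 such member are not reported here. Each result was recomputed with a smaller pseudocount (0.1), without the filter, with a stricter one (mean of 5 FPKM or more), after median-of-ratios or common-total scaling, on the compared groups alone, with array weights, with replicate number as block, with voom, and without each library. Fits without 3 libraries that stand apart and without 4 libraries low in Y-linked transcripts were added after seeing the data.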

Additional observations from a re-analysis of the deposited data

Results flagged for a closer look

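In 312 groups of 4 mice (47 named genes and 5 complex sums in 6 groups) the highest or lowest mouse was compared with the gap to its neighbour (Dixon's test at the 95% level), and 28 were set apart, where chance sets apart about 1 in 20. In control skin of day 10, replicate 2 was highest for Cox7b (116 FPKM), Ndufa1 (85.5), Sdhd (55.1), Uqcrh (406) and Uqcrq (55), and for the sums of complex I (2650) and complex IV (2757). Ndufa1 is the member with the second smallest p for DHT at day 10, and that control library lies inside the model range. Replicate 3 of that group was lowest for Cox7a1 (6.66 FPKM) and highest for Uqcrc2 (107). In control skin of day 15, replicate 3 was lowest for Cox7a2 (114 FPKM) and replicate 4 for Ndufab1-ps (5.77).

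In model skin of day 10, replicate 2 was highest for Ndufa10 (62.5 FPKM), and replicate 1 was lowest for Ndufa4l2 (32.7) and Ndufb10 (105). In model skin of day 15, replicate 2, the library with the highest muscle and fat sums, was highest for Cox8b (33.2 FPKM), Cox5a (32.7), Ndufaf8 (9.32), Ndufb11 (79.1) and the sum of complex II (321). Replicate 3, the library with the highest neutrophil sum, was lowest for Atp5a1 (246 FPKM).

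In treatment skin of day 10, replicate 1 was lowest for Cox6b2 (1.66 FPKM), replicate 3 highest for Cox8a (159), and replicate 4 lowest for Ndufa1 (63.4) and Sdhd (45.1). In treatment skin of day 15, replicate 1 was highest for Atp5g1 (54.2 FPKM), Ndufb11 (92.0) and Uqcrq (60.4), and replicate 3 for Ndufaf6 (1.67).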

How the results depend on the processing

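Counts of members called are compared with those of the report. For the extract against DHT at day 15 (19 called) the count was 28 with array weights (26 higher, 2 lower), 11 with a common total and 0 with only the groups compared. Leaving out 1 library gave 10 to 22. In the same order these fits called 2982, 2335 and 0 of all genes, and 1221 to 2947 without 1 library. For DHT against control at day 10 (0) the count was 1 with a common total, with only the groups compared and with the replicate block. It was 11 with array weights and 0 to 2 without 1 library. Of all genes the first 3 fits called 1661, 2481 and 1871, and array weights 4927, a larger share than of the members. For DHT against control at day 15 (1) the count was 2 with a mean of at least 5 FPKM and with the replicate block, and 15 with array weights. It was 0 without the 3 libraries that stand apart and 1 to 2 without 1 library. Of all genes array weights called 4592, a larger share than of the members, and the fit without the 3 libraries 179. The replicate block called 1451 of all genes, and the stricter filter 1175 of the 8684 it kept. For the extract at day 10 (0) the count was 3 with array weights, which called 1502 of all genes. For DHT plus extract against control the count was 4 with array weights on both days (0 in the report). At day 15 it was 7 without the 3 libraries and 0 to 5 without 1 library. Of all genes array weights called 4485 at day 10 and 1820 at day 15, and the fit without the 3 libraries 3352. Between the days the count in control skin (0) was 1 with a common total, 4 with array weights and 0 to 1 without 1 library. In model skin (1) it was 3 with a common total, 17 with array weights and 0 to 3 without 1 library. It was 0 there with median-of-ratios scaling, voom, only the groups compared or without the 3 libraries. In treatment skin (4) it was 11 with median-of-ratios scaling, 1 with a common total, 9 with array weights and 0 with only the groups compared. It was 8 there with voom, 2 with the replicate block, 7 without the 3 libraries and 1 to 7 without 1 library. Array weights called 3683 of all genes in control, 3347 in model and 2609 in treatment skin. In treatment skin median-of-ratios scaling called 1238 of all genes, a common total 1932, only the groups compared 440 and voom 1289. The replicate block called 1211 there and the fit without the 3 libraries 3273. In model skin a common total called 1259 of all genes, median-of-ratios scaling 501, voom 447 and only the groups compared 8. The fit without the 3 libraries called 105 there, and a common total called 947 in control skin. Counts over all genes without 1 library are given only for the extract at day 15. For the change of the extract's effect between days (0) the count was 6 with array weights, which called 596 of all genes. The cause was not tested in any of these, beyond the fewer libraries of the reduced fits.

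Of the values of named members under alternatives, 744 kept their direction and side of the threshold, 128 lost and 26 gained the call. Cox7b, treatment against control at day 15, was 0.11 (not called) without the 4 libraries, against -0.38; that is the value of 1 treatment library, day 15 replicate 3, which stands apart. Replicate numbers of different groups are different mice and share only a number: in no comparison did all same-numbered pairs deviate together (correlation over 0.1), and the counts with a replicate block are given for that reason only as values. Members under about 5 FPKM rest on few reads, 32 to 113 per library for Cox6b2.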
